A study of Mus musculus with 16 samples.

Results

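The enzymes described here belong to pathways that regenerate NADPH, although Pgls, Taldo1 and Tkt do not themselves reduce NADP+. The genes were taken by symbol, with no use of their signals, as the pentose phosphate pathway and other NADPH sources: G6pdx, Pgd, Pgls, Taldo1, Tkt, Me1, Idh1, Idh2 and Nnt. Of these 9 genes, 8 had probe sets that carry their symbol alone, and G6pdx was not analysed here. The 8 genes were represented by 18 of the 45037 probe sets tested, each measured on all 16 arrays.

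NADPH is the electron donor for glutathione reductase and for the thioredoxin reductases, and it also pays for the synthesis of fatty acids and sterols. The oxidative branch of the pentose phosphate pathway makes NADPH from glucose 6-phosphate, while its non-oxidative branch, with transketolase and transaldolase, returns pentose phosphates to glycolysis. Malic enzyme and isocitrate dehydrogenase make NADPH in the cytosol, and a second isocitrate dehydrogenase and the nicotinamide nucleotide transhydrogenase of the inner membrane make it in mitochondria. TR1, one of the proteins targeted in this study, is itself a consumer of NADPH.

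CT26 cells, a colon carcinoma line from BALB/c mice, were stably transfected and selected with hygromycin B, and the lines differed in the hairpins they carried in the pU6-m3 vector: shSep15, shTR1, both hairpins (shTR1/shSep15), or none (control, the empty vector). The purpose was to find what changed when Sep15 (gene Selenof), TR1 (gene Txnrd1) or both were reduced. Each line was measured on 4 Affymetrix mouse genome arrays, from different mRNA samples. Several clones were examined in the study, but no source used here says which clone an array came from or whether the cultures were separate. The p-values therefore cover only the variation among these mRNA samples, which may be technical. All values are log2 signals as deposited, so that a difference of 1 is a 2-fold change, and signals of different probe sets were not set against each other. The sequences chosen from the cDNAs as hairpin targets define the groups and are given here 5′ to 3′.
Sep15 hairpin target (Selenof, chromosome 3): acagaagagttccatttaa
TR1 hairpin target (Txnrd1, chromosome 10): atcgctctgacaagcttattag

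Selenof was at 8.02 to 8.29 in shSep15 cells and at 7.34 to 7.86 in shTR1/shSep15 cells, against 10.78 to 11.57 in control cells. Txnrd1 was at 7.18 to 7.91 in shTR1/shSep15 cells and at 7.85, 10.57, 7.89 and 9.71 in replicates 1 to 4 of the arrays labelled shTR1, against 9.45 to 10.39 in control cells. Replicates 2 and 4 of the arrays labelled shTR1 were thus at the control level of the targeted gene, and every direction given for that line rests on the labels. The array medians spanned 4.45 to 4.58. Of 13 epithelial markers none was at 6 or more in every array, but some were above 6 in part of the arrays. Krt20, the brightest in control cells, spanned 4.76 to 9.495, Krt18 2.89 to 8.90 and Epcam 5.44 to 6.59. Cdh1, the dimmest, was at 2.31 to 2.80. Of 11 measured leukocyte markers none was at 6 or more in every array, with the pan-leukocyte antigen Ptprc at 2.42 to 3.09 and Cd68 at 4.38 to 9.065. Of 11 fibroblast and endothelial markers 1 was, Col1a2, at 10.07 to 12.25. In mRNA from bulk cells, fewer cells of a type and less RNA per cell cannot be told apart.

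One array decided much of what follows. Control replicate 2 gave the lowest signal of all 16 arrays in 7 of the 8 members and the lowest of its line in all 8, whereas it was the lowest of 16 in 35.1% of the 8054 genes with a mean log2 signal of at least 6. The mean over the 8 members was 7.93 in control replicate 2 and 9.50, 9.17 and 9.42 in control replicates 1, 3 and 4. In the same array the β-actin 3′ minus 5′ difference, a sign of RNA integrity, was 0.786, against 0.376 to 0.563 in the others, and the Gapdh difference was −0.113, within the range of the others. The part of RNA integrity in the member signals was not tested. The difference of each member from control at its representative probe set, the brightest on average, is therefore given with and without this array, a choice made after its values were seen.

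**Figure D1:**
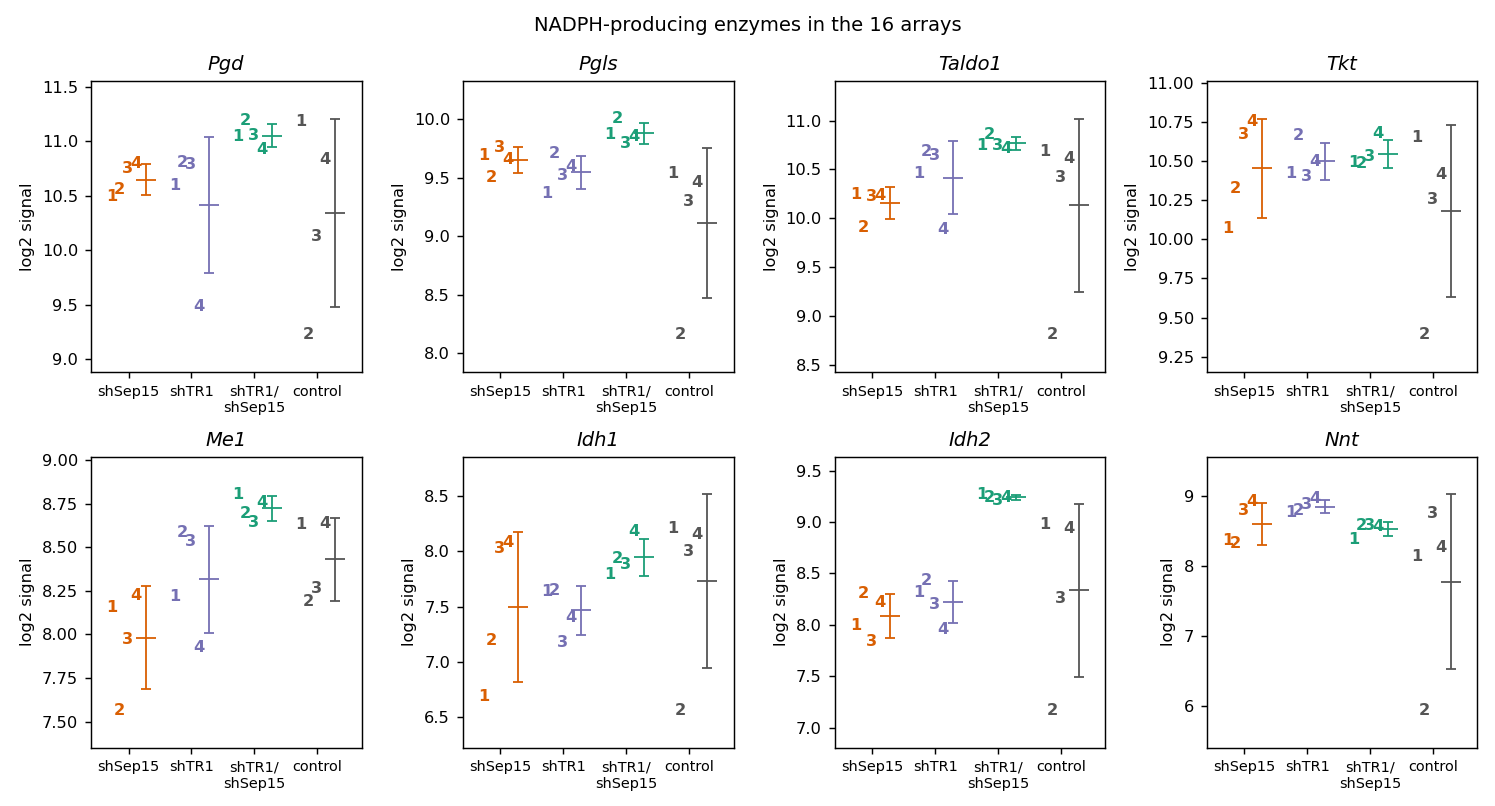
Log2 signal (vertical axis, a scale of its own for each gene) of the representative probe set of each of the 8 enzymes in the 16 arrays, by line. Digits are the replicate numbers, dashes mark the means of 4 arrays and vertical bars their SD. The digit 2 of control lies far below the rest in all genes but Pgd, Me1 and Idh1, and the 4 shTR1/shSep15 arrays lie close together.

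Against control, none of the 18 probe sets passed an adjusted p under 0.05 in limma in any of the 3 knockdown lines. The share that passed among all probe sets was 1.97% in shSep15 cells, 0.18% in the arrays labelled shTR1 and 0.0244% in shTR1/shSep15 cells. At an unadjusted p under 0.05, 3, 2 and 4 of the 18 probe sets were counted in these lines, where 12.7%, 11.8% and 8.14% of all probe sets were. In shTR1/shSep15 cells, the difference from control was positive in 8 of 8 members, with a median of 0.67 on the log2 scale, against 0.013 over all 18193 genes. In shSep15 cells and in the arrays labelled shTR1 it was positive in 5 of 8 members each, with medians of 0.15 and 0.18, against −0.019 and −0.027 over all genes.

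Leaving out control replicate 2 moved these medians to −0.24 in shSep15 cells, −0.17 in the arrays labelled shTR1 and 0.20 in shTR1/shSep15 cells, with 3, 3 and 7 of the 8 members higher than in control. The medians over all genes were then −0.022, −0.033 and 0.0051. No member passed without that array either, while 2.61%, 0.211% and 0.0466% of all probe sets did. The 3 comparisons share the control arrays, so an array that is low in control raises all 3 at once.

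**Figure D2:**
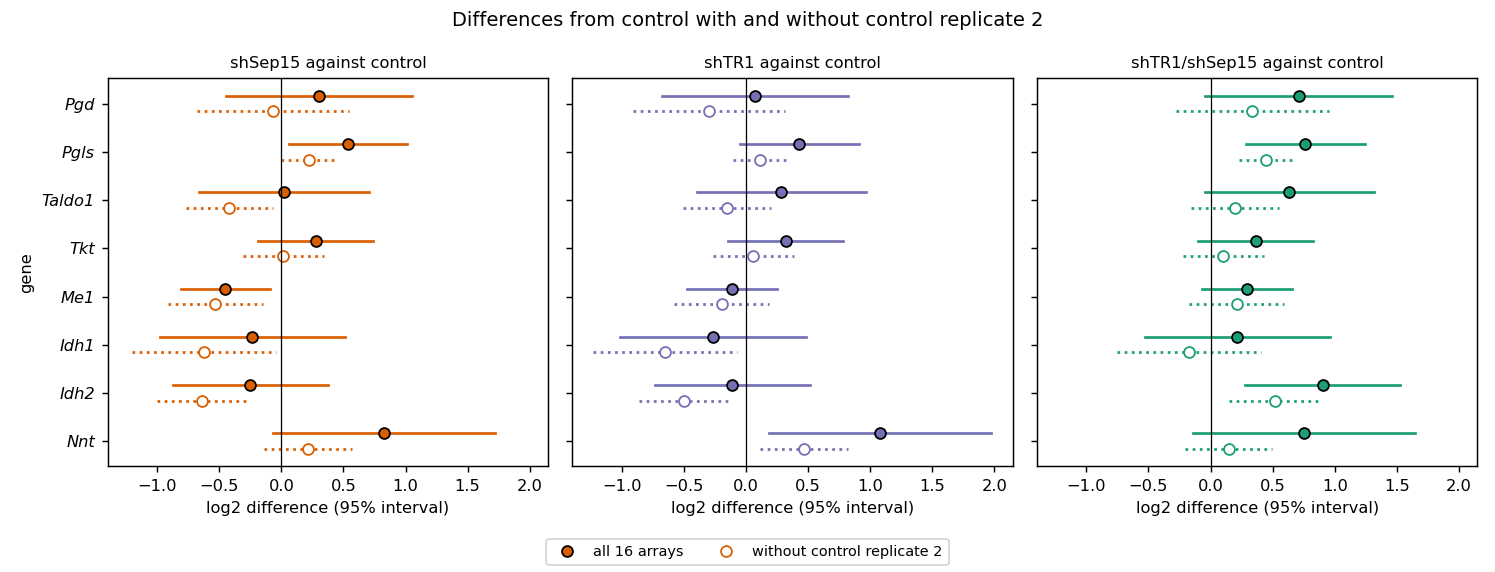
Log2 differences of the 8 enzymes from control (horizontal axis), with 95% intervals, in shSep15, shTR1 and shTR1/shSep15 cells. Filled points use all 16 arrays and open points leave out control replicate 2. Every open point lies left of its filled point, and most filled intervals are the wider.

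Pgls, which encodes 6-phosphogluconolactonase of the oxidative branch (chr8:71592184-71596267, GRCm38.p6), was at 9.69, 9.498, 9.76 and 9.66 in shSep15 cells, at 9.36, 9.70, 9.52 and 9.59 in the arrays labelled shTR1, and at 9.87, 10.002, 9.79 and 9.85 in shTR1/shSep15 cells, against 9.54, 8.16, 9.30 and 9.46 in control cells. All shTR1/shSep15 arrays were above every array of the other lines. The difference of shTR1/shSep15 from control was 0.76 (standard error 0.22, n = 4 arrays per line, unadjusted p = 0.0039, adjusted p = 0.38 from limma), which did not pass. It was 0.45 without control replicate 2, with a narrower interval of 0.23 to 0.67 and an adjusted p of 0.31 from limma. In shSep15 cells the difference was 0.54 (adjusted p = 0.32) and in the arrays labelled shTR1 it was 0.43 (adjusted p = 0.46), or 0.22 and 0.11 without that array. Across the 16 arrays, which share the 4 lines, the genes with the most similar signals to Pgls, the member of smallest p against control, were Nudt3 (Pearson r = 0.96), Rpn2 (r = 0.95) and Thop1 (r = 0.95). Without control replicate 2 these were 0.80, 0.76 and 0.76 over 15 arrays.

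Pgd encodes 6-phosphogluconate dehydrogenase, which produces the NADPH of the same branch after Pgls has acted (chr4:149149991-149166705). It was at 10.49, 10.56, 10.74 and 10.79 in shSep15 cells, at 10.59, 10.80, 10.78 and 9.49 in the arrays labelled shTR1, and at 11.04, 11.19, 11.05 and 10.92 in shTR1/shSep15 cells, against 11.18, 9.23, 10.13 and 10.83 in control cells. Control cells alone spanned nearly the whole range of the knockdown lines, and shTR1 replicate 4 was the low array of its line. The difference from control was 0.30 in shSep15 cells (adjusted p = 0.79 from limma), 0.073 in the arrays labelled shTR1 (adjusted p = 0.94) and 0.71 in shTR1/shSep15 cells (adjusted p = 0.64). Without control replicate 2 these values were −0.068, −0.30 and 0.34. All 4 arrays of shSep15 and all 4 arrays labelled shTR1 were below all 4 shTR1/shSep15 arrays (exact permutation p = 0.0286 each, two-sided, the smallest that 4 arrays against 4 can give), although the log2 differences of −0.40 and −0.64 did not pass (adjusted p = 0.75 and 0.56 from limma). The other 3 probe sets of Pgd followed the representative one closely (r = 0.98 to 1.00 over 16 arrays). At one of them (1423706_a_at), shTR1/shSep15 cells differed from control by 0.90 (unadjusted p = 0.03, adjusted p = 0.56), or by 0.46 without control replicate 2 (unadjusted p = 0.11), and the arrays labelled shTR1 differed from shTR1/shSep15 cells by −0.82 (unadjusted p = 0.044, adjusted p = 0.47).

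Taldo1 encodes transaldolase (chr7:141392160-141402976). It was at 10.25, 9.91, 10.23 and 10.23 in shSep15 cells, at 10.46, 10.69, 10.64 and 9.88 in the arrays labelled shTR1, and at 10.74, 10.86, 10.75 and 10.71 in shTR1/shSep15 cells, against 10.68, 8.81, 10.42 and 10.62 in control cells. Between shSep15 and control the difference depended on 1 array. It was 0.021 from all arrays (adjusted p = 0.99 from limma) and −0.42 without control replicate 2 (interval −0.77 to −0.07, adjusted p = 0.26). All shSep15 arrays were then below the 3 control arrays left, an order also held by Me1 and found in 5.77% of all genes. With all control arrays it was found in 2.76% of all genes and in 3.61% of those at a mean signal of at least 6. The arrays labelled shTR1 differed from control by 0.28 (adjusted p = 0.71), and shTR1/shSep15 cells by 0.63 (adjusted p = 0.65), with all shTR1/shSep15 arrays above the 4 control arrays, and these values were −0.15 and 0.19 without control replicate 2. Set against shTR1/shSep15 cells, shSep15 cells differed by −0.61 (standard error 0.32, adjusted p = 0.46). The same difference passed when control replicate 2 was left out (standard error 0.15, adjusted p = 0.0329), since the spread is shared by the lines and that array widens it.

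Tkt, which encodes transketolase (chr14:30549131-30574724), passed in none of the comparisons. Its signals were 10.07, 10.33, 10.67 and 10.75 in shSep15 cells, 10.42, 10.67, 10.40 and 10.50 in the arrays labelled shTR1, and 10.49, 10.48, 10.53 and 10.67 in shTR1/shSep15 cells, against 10.65, 9.39, 10.26 and 10.42 in control cells. The difference from control was 0.28 in shSep15 cells (adjusted p = 0.67 from limma), 0.32 in the arrays labelled shTR1 (adjusted p = 0.54) and 0.37 in shTR1/shSep15 cells (adjusted p = 0.72). Without control replicate 2 these values were 0.014, 0.057 and 0.10. The intervals around these last values, −0.31 to 0.34, −0.27 to 0.38 and −0.22 to 0.43, leave room for changes of that size in either direction. A further Tkt probe set of similar behaviour (1451015_at, r = 0.82) gave differences of 0.17, 0.18 and 0.51 in the same order, which without control replicate 2 were −0.18, −0.17 and 0.16, so that the first 2 changed sign. A dim one (1436605_at, mean 3.93) did not follow the representative one (r = −0.26).

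Me1, cytosolic malic enzyme, which turns malate into pyruvate and reduces NADP+ (chr9:86581363-86695914), was the only member that passed in any comparison. At its representative probe set (1430307_a_at) it was at 8.15, 7.57, 7.97 and 8.23 in shSep15 cells, at 8.22, 8.59, 8.53 and 7.93 in the arrays labelled shTR1, and at 8.80, 8.69, 8.64 and 8.76 in shTR1/shSep15 cells, against 8.63, 8.19, 8.27 and 8.64 in control cells. Every shSep15 array was below every shTR1/shSep15 array, and 3 of the 4 were also below the control arrays. At the second probe set (1416632_at) it was at 7.10, 6.97, 7.25 and 7.39 in shSep15 cells, at 7.06, 7.81, 7.65 and 7.35 in the arrays labelled shTR1, and at 7.89, 7.74, 7.87 and 7.95 in shTR1/shSep15 cells, against 7.58, 7.15, 7.44 and 7.46 in control cells. At both probe sets the mean was highest in shTR1/shSep15 cells and lowest in shSep15 cells.

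Me1 was lower in shSep15 than in shTR1/shSep15 cells at both probe sets. The log2 differences were −0.74 (1.67-fold, standard error 0.17, limma adjusted p = 0.0287) and −0.69 (1.61-fold, standard error 0.15, adjusted p = 0.0232). In that comparison 2 of 18 member probe sets passed, where 2.66% of all probe sets did. The calls lay near the threshold. With the replicate number as a block over all 16 arrays both ended (adjusted p = 0.0617 and 0.0502), and with an intensity trend both ended too (adjusted p = 0.0581 and 0.0625). With the block and only the 8 arrays of these 2 lines, an alternative chosen after the data were seen, both passed (adjusted p = 0.00831 and 0.00394), and 6 of the 18 member probe sets did. The share of all probe sets that passed was also higher in that setting than the 2.66% of the main fit. The count of 6 of 18 can therefore not be set against that 2.66%. At the representative probe set the call ended without shSep15 replicate 2 or 3 or any 1 of the 4 shTR1/shSep15 arrays (adjusted p = 0.0631 to 0.0809 from limma), and at the second it ended without shSep15 replicate 1, 2 or 3 or shTR1/shSep15 replicate 1, 3 or 4 (adjusted p = 0.0567 to 0.0735), while with single arrays left out the differences stayed between −0.83 and −0.61 and between −0.76 and −0.62. Against control, Me1 differed by −0.45 in shSep15 cells (unadjusted p = 0.018, adjusted p = 0.24), by −0.11 in the arrays labelled shTR1 (adjusted p = 0.79) and by 0.29 in shTR1/shSep15 cells (adjusted p = 0.71). Without control replicate 2, in which Me1 was less low than the other members, these values were −0.53, −0.20 and 0.21. The lowest shTR1/shSep15 array, at 8.642, was just above the highest control array, at 8.637. The arrays labelled shTR1 differed from shTR1/shSep15 cells by −0.41 and −0.40 at the 2 probe sets (unadjusted p = 0.029 and 0.018, adjusted p = 0.42 and 0.36), and by −0.35 and −0.51 without shTR1 replicates 2 and 4. Of the 13 epithelial markers 2 passed in the same comparison, Krt20 and Krt18, which differed by −3.54 and −3.19 (limma adjusted p = 0.000788 and 0.0131). The mean of the 13 was 4.06 to 4.27 in shSep15 arrays, against 4.60 to 4.81 in shTR1/shSep15 arrays. Their median difference was only −0.095, with 3 of 13 higher in shSep15 cells. The part of Krt20 and Krt18 in the Me1 difference was not tested.

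Me1 is a known target of the transcription factor Nrf2, which binds antioxidant response elements, so its promoter is shown. The letters TGACNNNGC were searched on both strands of windows from 250 bases before to 50 bases after the transcription start (RefSeq, GRCm38.p6), and 12.4% of 32851 such windows, or 14.0% of genes with a window, held a match. Of the 7 measured members with windows, 10 windows in all, 2 held a match, Me1 and Pgd, each in 1 of its 2 windows. The Pgd match, TGACATTGC, starts 4 bases after an alternative start. The Me1 window with the match, chr9:86695865-86696164 on the minus strand, has it, in capitals, 6 bases before the start.
Me1 promoter: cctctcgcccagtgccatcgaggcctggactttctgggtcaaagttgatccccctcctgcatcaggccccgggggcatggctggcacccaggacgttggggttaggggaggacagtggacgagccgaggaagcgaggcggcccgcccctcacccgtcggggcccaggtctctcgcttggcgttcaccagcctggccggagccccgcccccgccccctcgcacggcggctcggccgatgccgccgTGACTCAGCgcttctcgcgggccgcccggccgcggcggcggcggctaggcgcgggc
The match describes these letters alone. Nfe2l2, the gene of Nrf2, passed in none of the 6 comparisons (adjusted p of 0.43 or more from limma), with −0.39 between shSep15 and shTR1/shSep15 cells. Idh1, Idh2, Pgls, Taldo1 and Tkt held no match in their windows.

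Idh1 encodes the cytosolic NADP-dependent isocitrate dehydrogenase (chr1:65158616-65186479). Its signals were 6.69, 7.20, 8.03 and 8.08 in shSep15 cells, 7.64, 7.65, 7.18 and 7.40 in the arrays labelled shTR1, and 7.79, 7.94, 7.88 and 8.18 in shTR1/shSep15 cells, against 8.21, 6.57, 7.999 and 8.16 in control cells. The shSep15 arrays fell into a low and a high pair, with an SD of 0.68, so that the interval of the difference from control, −0.98 to 0.51, was wide. The difference from control was −0.23 in shSep15 cells (adjusted p = 0.84 from limma), −0.27 in the arrays labelled shTR1 (adjusted p = 0.76) and 0.22 in shTR1/shSep15 cells (adjusted p = 0.93). Without control replicate 2 these values were −0.62, −0.65 and −0.17. All 4 arrays labelled shTR1 were then below the 3 control arrays, an order found in 2.83% of all genes. They were also below the 4 shTR1/shSep15 arrays. Both Idh1 probe sets are of a kind whose probes can match more than 1 transcript, and the dimmer one (1419821_s_at, mean 5.58) followed the brighter one with r = 0.74. The same limit applies to the representative probe sets of Pgd (1437380_x_at) and Tkt (1439443_x_at). It also applies to further ones of Pgd and to 1456573_x_at of Nnt.

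Idh2, the mitochondrial NADP-dependent isocitrate dehydrogenase (chr7:80094845-80118608), showed the widest gap between the double knockdown and the single knockdowns. It was at 7.99, 8.30, 7.84 and 8.22 in shSep15 cells, at 8.31, 8.44, 8.20 and 7.96 in the arrays labelled shTR1, and at 9.27, 9.23, 9.21 and 9.24 in shTR1/shSep15 cells, against 8.97, 7.17, 8.26 and 8.94 in control cells. The shTR1/shSep15 arrays, with an SD of 0.02, were above every other array. Against shTR1/shSep15 cells, shSep15 cells differed by −1.15 (standard error 0.29, 2.22-fold, adjusted p = 0.0507 from limma) and the arrays labelled shTR1 by −1.01 (standard error 0.29, 2.02-fold, adjusted p = 0.22), neither of which passed. Control replicate 2, at 7.17, has no part in either mean but widens the shared spread: without it the standard error was 0.16 and both differences passed (adjusted p = 0.00103 and 0.0209). With the block and only the 8 arrays of shSep15 and shTR1/shSep15, the first of these also passed (adjusted p = 0.00133). Without shTR1 replicates 2 and 4 the difference of that line was −0.98, and it did not pass (adjusted p = 0.67).

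From control, Idh2 in shTR1/shSep15 cells differed by 0.90 (standard error 0.29, 1.87-fold, unadjusted p = 0.0077, adjusted p = 0.44) and by 0.52 without control replicate 2 (interval 0.15 to 0.88, adjusted p = 0.62). In shSep15 cells it differed by −0.25 (adjusted p = 0.79) and without that array by −0.64 (interval −1.002 to −0.27, adjusted p = 0.0681). In the arrays labelled shTR1 the values were −0.11 (adjusted p = 0.89) and −0.50 (adjusted p = 0.27). A dim Idh2 probe set (1453601_at, mean 3.85) did not follow the bright one (r = 0.20) and gave differences of −0.20 to −0.04 in the same comparisons.

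Nnt encodes the transhydrogenase that uses the proton gradient to reduce NADP+ (chr13:119335527-119409257). Its signals were 8.36, 8.32, 8.79 and 8.92 in shSep15 cells, 8.77, 8.79, 8.88 and 8.96 in the arrays labelled shTR1, and 8.38, 8.59, 8.58 and 8.57 in shTR1/shSep15 cells, against 8.13, 5.94, 8.75 and 8.27 in control cells. It was the one member of which the arrays labelled shTR1 were above both the shTR1/shSep15 and the control arrays. The difference from control was 1.08 in those arrays (standard error 0.42, 2.11-fold, unadjusted p = 0.022, adjusted p = 0.34 from limma), 0.82 in shSep15 cells (adjusted p = 0.45) and 0.75 in shTR1/shSep15 cells (adjusted p = 0.69). Much of these values came with control replicate 2, since without it the differences were 0.47, 0.21 and 0.14 (adjusted p = 0.29 in the arrays labelled shTR1). A second Nnt probe set (1456573_x_at) behaved alike (r = 0.89), with 1.32 in the arrays labelled shTR1 (unadjusted p = 0.007, adjusted p = 0.23) and 1.11 in shSep15 cells (adjusted p = 0.25), or 0.82 and 0.61 without control replicate 2. The third (1432608_at, mean 4.57) did not (r = −0.14).

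**Figure D3:**
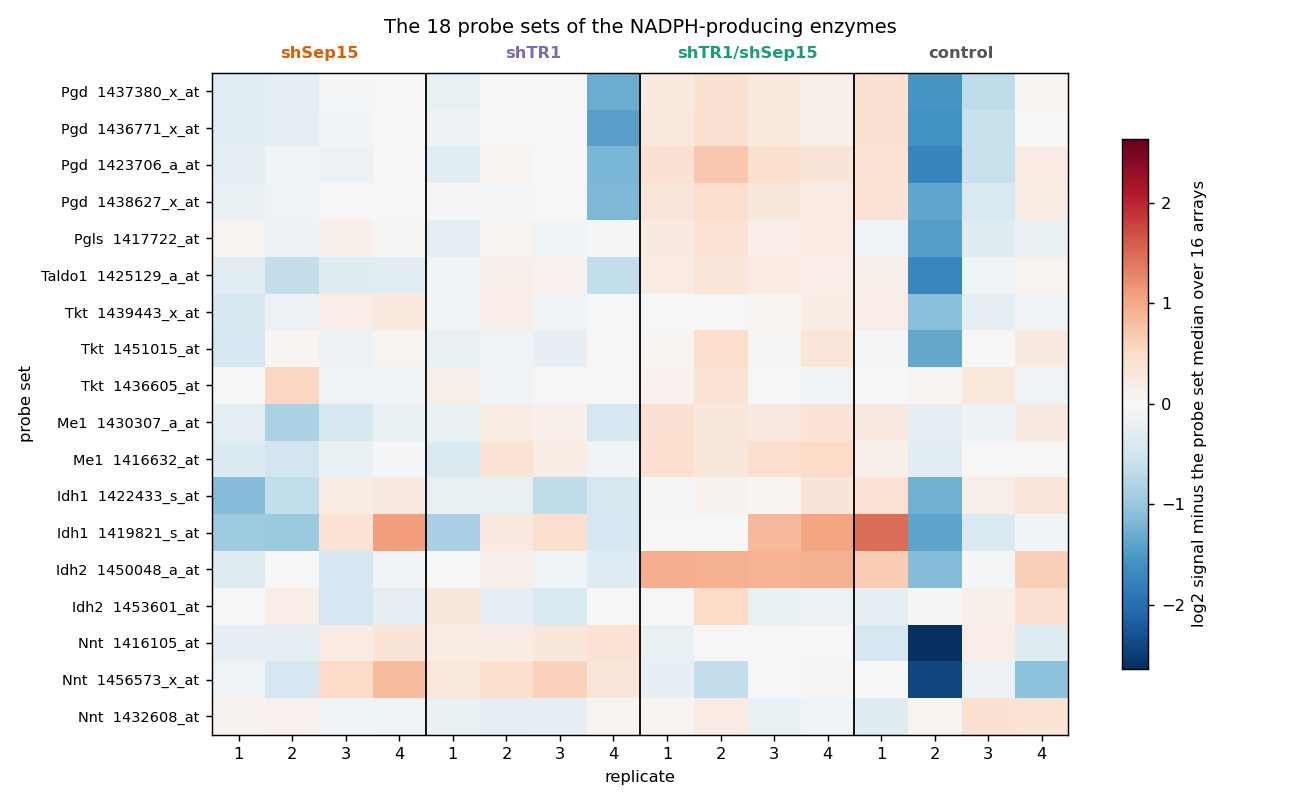
Log2 signal of each of the 18 member probe sets (rows) in the 16 arrays (columns, by line and replicate), minus the median of that probe set over the 16 arrays. Red is above and blue below the median. The column of control replicate 2 is blue in the bright probe sets of every gene, palest in Me1, and the 4 shTR1/shSep15 columns of the bright Idh2 probe set are evenly red.

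The order of the arrays was also counted over the members. All 4 shSep15 arrays were below all 4 shTR1/shSep15 arrays at 9 of 18 probe sets, where 7.11% of all probe sets were so ordered, and for 5 of 8 genes, Pgd, Pgls, Taldo1, Me1 and Idh2, where 16.5% of the genes at a mean signal of at least 6 were. For the arrays labelled shTR1 the counts were 10 of 18 probe sets, against 3.41%, and 6 of 8 genes, against 5.38%, with Idh1 in addition to those 5. In the opposite direction stood Nnt, the 1 gene of 8 of which all arrays labelled shTR1 were above the shTR1/shSep15 arrays, against 9.44% of the genes at that mean signal, and above the control arrays, against 5.65%. The shTR1/shSep15 arrays were above all control arrays at 5 of 18 probe sets, against 3.12%, and for 4 of 8 genes, against 7.8%: Pgls, Taldo1, Me1 and Idh2. Leaving out control replicate 2 could not change this count, since that array was the lowest of its line in all 8 members. The share of the genes at that mean signal was then 9.86%. Both sets of single-knockdown comparisons share the same 4 shTR1/shSep15 arrays. The median difference over the 8 members was −0.43 for shSep15 against shTR1/shSep15 and −0.38 for the arrays labelled shTR1 against it, while over all genes it was −0.030 and −0.051. By the adjusted p of limma, 0 of 18 member probe sets passed for the arrays labelled shTR1 against shTR1/shSep15 cells, where 0.0733% of all did, and 4 were counted at an unadjusted p under 0.05, where 10.4% of all were.

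**Figure D4:**
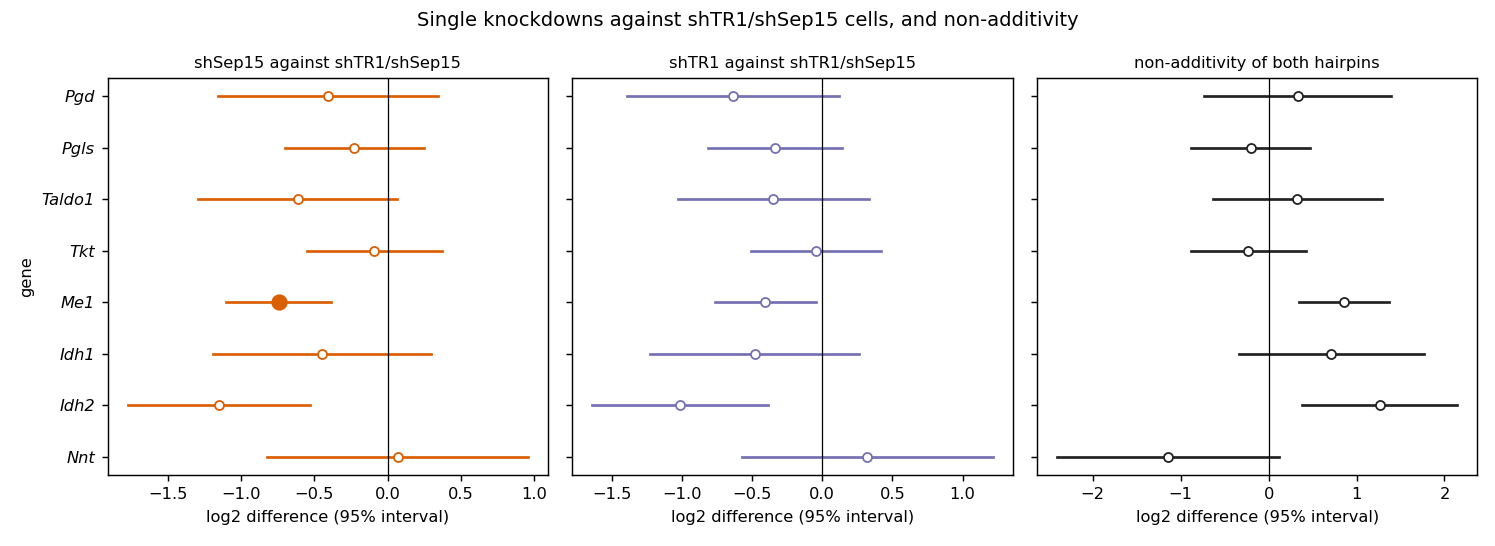
Log2 differences of the 8 enzymes (horizontal axis, each panel on its own scale) with 95% intervals. The left and middle panels set the single knockdowns against shTR1/shSep15 cells and the right panel gives the non-additivity. The large filled point, Me1 in the left panel, is the only one with an adjusted p under 0.05, and Idh2 lies farthest from 0 in the left and middle panels.

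Whether both hairpins together gave the sum of their single effects was tested as the difference of shTR1/shSep15 from control minus the differences of both single lines from control. None of the 18 probe sets passed, where 2.85% of all did, and 4 were counted at an unadjusted p under 0.05, where 16% of all were. The largest positive value among the representative probe sets was that of Idh2, at 1.26 (standard error 0.41, adjusted p = 0.13 from limma), followed by Me1 at 0.86 (standard error 0.24, adjusted p = 0.0722). The second Me1 probe set was at 0.63 (adjusted p = 0.15). Without control replicate 2 both genes passed at their representative probe sets, Idh2 at 1.65 (adjusted p = 0.00159) and Me1 at 0.94 (adjusted p = 0.0392). The second Me1 probe set, at 0.71, did not pass (adjusted p = 0.068). The share of all probe sets that passed was then also above 2.85%. The test also uses shTR1 replicates 2 and 4, whose Txnrd1 was at the control level. With those and control replicate 2 left out, Idh2 alone passed, at 1.62 (limma adjusted p = 0.00659). With only shTR1 replicates 2 and 4 left out, 0 member probe sets passed. Nnt ran the other way, with −1.15 (adjusted p = 0.36) and −1.72 (unadjusted p = 0.011, adjusted p = 0.16) at its bright probe sets. These were −0.54 and −1.22 without control replicate 2 (adjusted p = 0.21 and 0.11).

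The members also differed in how tightly the arrays of a line agreed. The median SD over the 8 members was 0.25 in shSep15 cells, 0.21 in the arrays labelled shTR1 and 0.09 in shTR1/shSep15 cells, against 0.81 in control cells, or 0.21 without control replicate 2. Over the genes at a mean signal of at least 6 the medians were 0.23, 0.32 and 0.19, against 0.44 in control cells and 0.28 without that array. The signals of the enzymes varied together across the 16 arrays, with a median r of 0.68 over 28 pairs of members (0.05 to 0.87), and much of this came with 1 array: without control replicate 2 the median was 0.39 (−0.52 to 0.95, 15 arrays). The closest pair over all 16 arrays was Pgd and Taldo1, at 0.87, and over the 15 arrays it was Taldo1 and Me1, at 0.95, which were at 0.66 over all 16.

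Other genes of NADPH metabolism were counted in the same comparisons. Of 17 other NADPH-linked enzymes, all measured, none passed in any of the 6 comparisons, in which 0.0244% to 2.85% of all probe sets passed. Of 19 NADPH-using enzymes, 14 were measured, and between shSep15 and shTR1/shSep15 cells the targeted gene Txnrd1 was higher in shSep15 cells and Fasn, fatty acid synthase, was lower, with a log2 difference of −0.85 (standard error 0.20, limma adjusted p = 0.0363). Fasn was at 7.85, 8.24, 7.94 and 8.11 in shSep15 cells, against 8.83, 9.12, 8.86 and 8.75 in shTR1/shSep15 cells, and in the test of non-additivity it passed with 1.27 (adjusted p = 0.029). Of 10 measured genes of lipid synthesis (12 listed, Fasn among them), Acly, ATP-citrate lyase, which supplies the acetyl-CoA for fatty acids, passed as well. Acly was at 9.46, 9.53, 9.46 and 9.56 in shSep15 cells, against 10.11, 9.80, 10.02 and 9.99 in control cells. It fell by 0.48 (standard error 0.09, adjusted p = 0.01), or by 0.54 without control replicate 2. With all arrays this was the only call against control in the 6 metabolic lists. Fasn in shSep15 cells differed from control by −0.52 with all arrays (limma adjusted p = 0.26). Without control replicate 2 that difference was −0.73, and it passed (adjusted p = 0.0346).

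Of 13 measured genes of glycolysis (16 listed), Pfkl, liver-type phosphofructokinase, was lower in shSep15 than in shTR1/shSep15 cells. The log2 difference was −0.60 (standard error 0.15, limma adjusted p = 0.0449). Against control, Pfkl differed by 0.09 in shSep15 cells (adjusted p = 0.86) and by 0.69 in shTR1/shSep15 cells (adjusted p = 0.20). Fasn, Pfkl and Acly were named after their values were seen. None of 15 measured genes of the tricarboxylic acid cycle (16 listed) passed in any comparison, and of 14 measured Nrf2 regulators and targets (16 listed) Txnrd1 alone passed, between shSep15 and shTR1/shSep15 cells. The median log2 difference of shSep15 from shTR1/shSep15 cells was −0.22 for the other NADPH-linked enzymes, −0.36 for the NADPH-using enzymes, −0.12 for the tricarboxylic acid cycle, −0.37 for glycolysis, −0.51 for the Nrf2 list and −0.40 for lipid synthesis. The members described here, at −0.43, lay within the range of these lists, each of which was below the −0.030 of all genes.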

How the data were processed

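Total RNA of the 4 lines, 4 mRNA samples each, was hybridized by the authors to Affymetrix mouse genome arrays. The authors summarised the probe signals by Robust Multi-Array Analysis (its version is not given in the sources used here) and deposited background-corrected log2 signals per probe set, which were used as deposited. Arrays give no count or depth, and their number limits the precision. No pair of arrays held identical values (r = 0.93 to 1.00).

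The 64 control probe sets among 45101 were left out. Of the 45037 tested, 34945 carry 1 gene symbol, 932 several and 9160 none in the platform annotation; 34741 gene numbers were matched to the RefSeq table and 0 symbols changed. Each gene (18193 in all) is described at 1 probe set, the brightest on average among those annotated to that gene only. All members are named, against control at that probe set and otherwise where an unadjusted p was under 0.05 or values seen later are said to be so. The members, lists and comparisons were chosen with earlier results of these data known.

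Groups came from the labels. Each probe set was fitted with a mean per line in limma 3.58.1 (R 4.3.3) and moderated by empirical Bayes (12 residual and 2.58 prior degrees of freedom), in 6 comparisons, with Benjamini-Hochberg adjustment over all probe sets tested. Since 1 variance per probe set serves all lines, scatter in any line enters every test. The procedure was tested on simulated data. Replicate numbers were checked as pairs by the correlation of same-numbered arrays' deviations from the line means: all 4 pairs were over 0.1 for shSep15 with shTR1/shSep15 (0.10 to 0.47), and at most 2 of 4 were for any other lines, so the blocked values are given in the first case. Nothing in the sources used here says what the numbers stand for. The metabolic lists (other NADPH-linked enzymes, NADPH-using enzymes, tricarboxylic acid cycle, glycolysis, Nrf2 regulators and targets, lipid synthesis) and the epithelial, leukocyte and fibroblast and endothelial markers were only counted. Alternatives were an intensity trend, probe sets at a mean of at least 6, the arrays compared alone, median centring, quantile normalization, the methods' ANOVA, the replicate number as a block, the mean of a gene's probe sets, each array left out and, chosen after seeing the data, shTR1 replicates 2 and 4 left out with and without control replicate 2, array weights, and the block with only the 2 lines shSep15 and shTR1/shSep15. Python 3.11.15 and matplotlib 3.10.9 drew the figures.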

Additional observations from a re-analysis of the deposited data

Results flagged for a closer look

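In 72 groups of 4 arrays, formed by the 18 member probe sets in the 4 lines, 8 had 1 array far from the other 3. In independent groups chance alone gives about 1 in 20. These groups are not independent, since probe sets of 1 gene share the same arrays, so the count cannot be set against that rate. Pgd was low in shTR1 replicate 4 at 3 of its 4 probe sets, with 9.49, 9.31 and 8.19. Taldo1 was low in shSep15 replicate 2, at 9.91, and in control replicate 2, at 8.81. Idh1 was low in control replicate 2, at 6.57. Nnt was low in shTR1/shSep15 replicate 1, at 8.38, where the other arrays of that line were within 8.57 to 8.59. The dim Tkt probe set was high in shSep15 replicate 2, at 4.42.

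The effect of shSep15 on Me1 differed from that of shTR1/shSep15, both taken against the same control arrays, by −0.74 at the representative probe set and by −0.69 at the second one (adjusted p = 0.0287 and 0.0232 from limma, 4 of 4 shSep15 arrays below all shTR1/shSep15 arrays). Neither effect passed by itself.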

How the results depend on the processing

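Against control, 0 member probe sets passed in each of the 3 lines, and with any single array left out the counts stayed at 0. The ANOVA of the methods at an unadjusted p counted 3 in shSep15, 2 in shTR1 and 4 in shTR1/shSep15 cells, 3 for shTR1 against shTR1/shSep15 and 4 for non-additivity, and array weights gave 1 in shSep15 cells, 4 for shSep15 against shTR1/shSep15, 1 for shTR1 against it and 4 for non-additivity. The 2 calls for shSep15 against shTR1/shSep15 became 0 with an intensity trend, 1 with median centring, 1 with the adjusted ANOVA, 4 without shTR1 replicates 2 and 4 and control replicate 2, 8 with the arrays compared alone, 6 with those arrays and the replicate block, and 0 to 4 with single arrays left out. For shTR1 against shTR1/shSep15 the count was 1 with the arrays compared alone and 0 to 1 with single arrays left out (1 without control replicate 2). For non-additivity it was 2 after quantile normalization, 1 (Idh2) without shTR1 replicates 2 and 4 and control replicate 2, and 0 to 2 with single arrays left out (2 without control replicate 2), and the arrays compared alone are all 16. The cause was not tested, other than that these settings change the arrays or the shared spread. Calls over all probe sets also rose in several settings, so a higher member count alone does not set the members apart. For shSep15 against shTR1/shSep15 they rose with the arrays compared alone, with the block on those arrays and with array weights. Without control replicate 2, and with the ANOVA at an unadjusted p, they rose in every comparison.

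With the replicate number as a block, the 2 Me1 calls became 0 (adjusted p = 0.0617 and 0.0502) and no other count over the members moved. Over all lines, same-numbered arrays deviated with r = −0.53 to 0.47 (24 pairs, 8 over 0.1). For shSep15 with shTR1/shSep15 all 4 pairs were over 0.1, although 4 of the 8 arrays correlated best with their own number.

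Differences from control near 0 changed sign, none of them called. Without shTR1 replicates 2 and 4 and control replicate 2, shSep15 cells were at −0.068 for Pgd and −0.42 for Taldo1, shTR1 cells at −0.028 for Pgd, −0.022 for Taldo1 and −0.027 for Tkt, and shTR1/shSep15 cells at −0.17 for Idh1. Array weights gave −0.16 for Pgd in shTR1, −0.21 for Taldo1 in shSep15 and −0.041 for Idh1 in shTR1/shSep15 cells, and quantile normalization −0.034 for Taldo1 in shSep15 cells. With single arrays left out, the ranges that crossed 0 were −0.068 to 0.58 (Pgd) and −0.42 to 0.20 (Taldo1) and −0.62 to 0.038 (Idh1) in shSep15 cells, −0.30 to 0.38 (Pgd), −0.15 to 0.47 (Taldo1), −0.20 to 0.016 (Me1) and −0.50 to 0.10 (Idh2) in shTR1 cells, and −0.17 to 0.37 (Idh1) in shTR1/shSep15 cells. The dim probe sets of Tkt, Idh2 and Nnt (means of 3.93, 3.85 and 4.57) lie near or below the array medians and bound nothing.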
